A study of Mus musculus with 79 samples.

Results

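The mouse genes Adar, Adarb1 and Adarb2 encode the ADAR family of adenosine deaminases that act on RNA. Their transcripts were followed across 4 neuron types of the medial prefrontal cortex, in mice that had or had not been through chronic stress. They were taken by gene name, and all 3 were found among the 38879 genes of the deposited table. The choice was made with earlier results of these data known, among them the level of Adarb2 in the neuron types of control mice, so differences between types in control mice are given below as descriptions. Tests of neuron type were run in the stressed mice, whose levels may also have been seen when the family was chosen.

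The 79 libraries came from 20 male C57Bl/6J mice (strain also labelled C57Bl/6), 10 in each arm, whose age is not given in the sources used here. Mice of the UCMS arm were housed singly and met a changing series of mild stressors, restraint and predator odor among them, for 5 weeks, with behavioural tests near the end; control mice lived in groups with their littermates, so stress and single housing cannot be told apart. From each brain 130 cells per type were captured by laser after labelling with RNAscope probes: pyramidal (PYR), parvalbumin (PV), somatostatin (SST) and vasoactive intestinal peptide (VIP) neurons. Each type had 10 control and 10 UCMS libraries, except PV with 9 UCMS libraries since no PV library of mouse U609 was analysed here. Each library is a small bulk sample, in which fewer cells of a type and less RNA per cell cannot be told apart.

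ADAR enzymes bind paired RNA and turn adenosine into inosine, which ribosomes and splicing factors read as guanosine. Adar (ADAR1) is found in most tissues, edits long RNA duplexes and keeps cellular RNA from setting off innate immune sensors. Adarb1 (ADAR2) recodes neuronal messages, above all the glutamate receptor subunit Gria2, whose edited form makes AMPA receptors nearly impermeable to calcium. Adarb2 (ADAR3) is brain-enriched, has no known editing activity and can bind the same RNAs. Editing itself needs the reads and was not analysed here, so all values below are transcript levels.

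On GRCm38, Adar (ENSMUSG00000027951) lies on chromosome 3, plus strand, from 89715022 to 89753446, and has 8118 bases of annotated exon. Adarb1 (ENSMUSG00000020262) lies on chromosome 10, minus strand, from 77290726 to 77418270, with 11272 exon bases. Adarb2 (ENSMUSG00000052551) spans 565882 bases of chromosome 13, plus strand, from 8202866 to 8768747, with 13114 exon bases. In Adar, 1365 exon bases overlap exons of Chrnb2, a nicotinic receptor subunit gene on the opposite strand with a mean of 583 normalized counts, and whether reads were assigned by strand is not given in the sources used here. No other annotated exon overlaps an exon of Adarb1 or Adarb2.

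The 250 bases before each gene's RefSeq start (GRCm38.p6, 5′ to 3′ on the gene's strand, first listed start for Adar) are shown here, with every CpG in capitals. Whether they bear on transcript levels in the neuron types was not tested. The windows are chr3:89714772-89715021 for Adar, chr10:77418274-77418523 for Adarb1 and chr13:8202616-8202865 for Adarb2.
Adar: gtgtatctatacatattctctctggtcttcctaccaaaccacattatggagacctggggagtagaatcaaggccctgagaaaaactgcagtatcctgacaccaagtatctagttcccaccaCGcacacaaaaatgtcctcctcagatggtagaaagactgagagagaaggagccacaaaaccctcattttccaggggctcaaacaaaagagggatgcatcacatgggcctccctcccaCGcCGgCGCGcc
Adarb1: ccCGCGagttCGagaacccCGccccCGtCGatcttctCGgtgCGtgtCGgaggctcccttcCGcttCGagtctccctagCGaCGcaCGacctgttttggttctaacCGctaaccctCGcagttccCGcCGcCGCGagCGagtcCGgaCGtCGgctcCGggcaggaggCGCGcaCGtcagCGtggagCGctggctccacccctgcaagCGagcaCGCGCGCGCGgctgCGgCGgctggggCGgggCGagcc
Adarb2: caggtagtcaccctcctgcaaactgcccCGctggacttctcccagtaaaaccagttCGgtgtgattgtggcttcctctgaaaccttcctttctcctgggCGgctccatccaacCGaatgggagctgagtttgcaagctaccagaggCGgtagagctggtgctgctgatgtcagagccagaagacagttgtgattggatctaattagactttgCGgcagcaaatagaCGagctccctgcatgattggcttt
The Adarb1 window holds 40 CpG and is 72% G or C, which puts it at percentile 98.7 for CpG among 32851 RefSeq promoter windows of the same length. The Adarb2 window holds 7 CpG (percentile 53.7) and the Adar window 5 (percentile 44.4), against a median of 6. Adar has 3 listed starts, and the windows before the other two hold 24 and 10 CpG. The letters TATAAA, searched on both strands, occur in none of the members' windows and in 12.4% of all windows. The letters CCAAT, also on both strands, occur 2 times before Adarb2, 1 time before the second Adar start and not in the Adarb1 window, and in 33.8% of all windows. These are matches of letters only, and nothing about binding was measured.

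Recovered reads per library ranged from 3642579 to 13529571, and genes with a read from 9033 to 20307. The lowest 7 libraries, under 6000000 reads, comprised 1 PV and 6 VIP libraries. Captures carried the transcript of their probe: Vip averaged 5104 ± 1333 normalized counts (SD, n = 10) in control VIP libraries and at most 35.7 ± 94.8 in any other type and arm, and Pvalb averaged 816 ± 422 in control PV libraries and at most 43.1 ± 47.4 outside PV. Slc17a7, the glutamate transporter of pyramidal neurons, was highest in PYR libraries (14218 ± 2014 in controls) but still averaged 2603 to 4998 in the groups of the other types. The summed level of 6 astrocyte markers was highest in VIP libraries, with medians of 9993 (control) and 10531 (UCMS) against 6164 to 8196 elsewhere.

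Adarb2 was a VIP neuron transcript in these libraries. Control VIP libraries ran from 4134 to 8464 normalized counts with a median of 6326, and UCMS VIP libraries from 4365 to 10070 with a median of 5898. Every one of the 20 VIP libraries lay above every one of the 59 others, whose median was 28.8 and whose highest value was 481. Of 17427 genes tested over all libraries, 13 (0.0746%) separated VIP from the rest in this way.

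Control PYR libraries held 0.783 to 258 normalized counts of Adarb2 (median 52.8) and UCMS PYR libraries 0 to 115 (median 43.3). In PV libraries the range was 0 to 481 in controls (median 0.395) and 0 to 198 under UCMS (median 54.1). In SST libraries it was 0 to 425 in controls (median 8.89) and 0 to 131 under UCMS (median 28.5). Low and high libraries thus occurred side by side in each type, and the PYR, PV and SST ranges overlapped in both arms.

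Among UCMS mice the mean of Adarb2 in VIP libraries was 118 times the PYR mean, 91.3 times the PV mean and 157 times the SST mean. With the mouse as a block, VIP exceeded PYR by 7.21 on the log2(normalized count + 4) scale (SE 0.642, limma adjusted p = 7.92e-20), in 10 of 10 mice, in a comparison where 5.32% of all genes were called. VIP exceeded PV by 7.24 (SE 0.665, limma adjusted p = 4.06e-19) in 9 of 9 mice, with 11% of genes called. VIP exceeded SST by 8.02 (SE 0.642, limma adjusted p = 2.50e-23) in 10 of 10 mice, with 4.39% of genes called. These 3 differences passed under each alternative tried. The added constant of 4 lowers folds against libraries near 0, while means on the log scale give such libraries more weight. The log2 differences stand for folds of 148 (PYR), 151 (PV) and 260 (SST), each above the ratio of means. The astrocyte marker level given above also differed between VIP and the other types, and its part in the result was not tested.

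The other 3 types could not be ordered for Adarb2. PYR and PV differed by 0.03 (95% interval -1.28 to 1.34), PYR and SST by 0.81 (-0.45 to 2.08), and PV and SST by 0.78 (-0.53 to 2.09). Limma adjusted p-values were 0.989, 0.658 and 0.664, and the intervals reach 1.34, 2.08 and 2.09 log2 units at their upper ends.

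**Figure D1:**
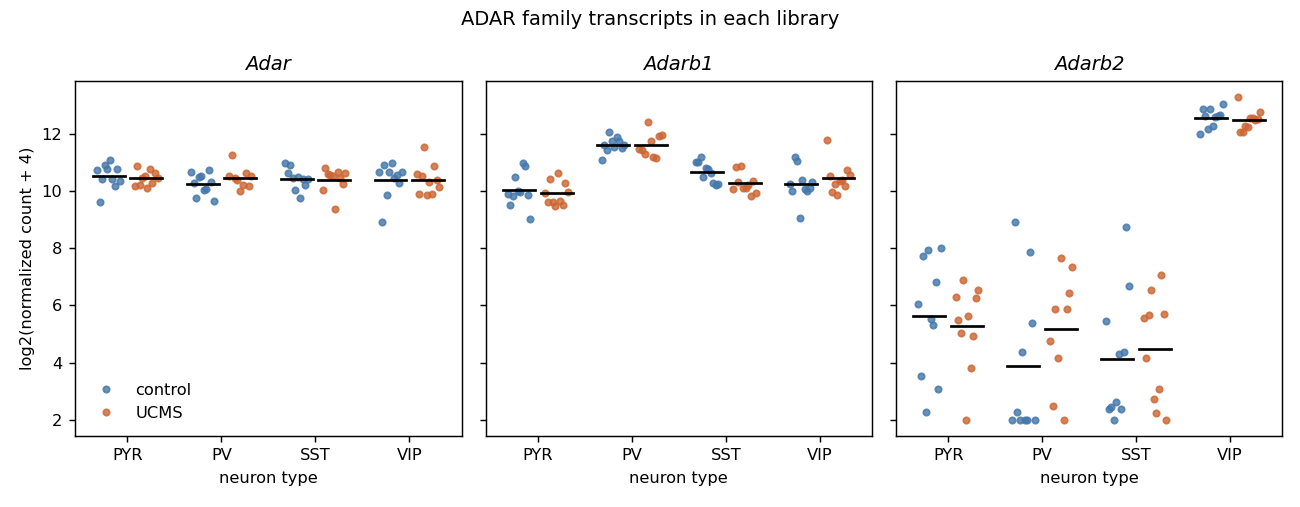
Level of each ADAR family gene in every library, as log2(normalized count + 4), by neuron type; points are libraries (control blue, UCMS orange) and black bars are means of the plotted values, with 9 or 10 libraries per group. Adarb2 in VIP libraries sits above all other Adarb2 values, Adarb1 is highest in PV libraries, and Adar lies at a similar height in all types.

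Outside VIP captures Adarb2 was low but mostly present. Of the 59 PYR, PV and SST libraries, 50 held at least 1 read, 38 exceeded 10 normalized counts, 11 exceeded 100 and 2 exceeded 300. The 9 libraries with 0 reads (5 of them control PV) allow a level of up to 2.08 to 5.98 normalized counts at their depths, which covers counting error only. The highest value, 481 (471 reads), was the control PV library of mouse U10, which held no Vip read, 1.02 normalized counts of the serotonin receptor Htr3a, 135 of Lamp5 and 98.1 of Ndnf, the latter pair being markers of neurogliaform interneurons. Its 9 VIP markers together summed to 1952, the highest of the PV libraries, whose medians were 1098 (control) and 1372 (UCMS). The next highest Adarb2 value, 425 (424 reads), was the control SST library of mouse U8, with 8.01 of Vip, 0 of Htr3a, 32.0 of Lamp5 and 409 of Ndnf. There the VIP markers summed to 2978, against a control SST median of 3022. The next Adarb2 value down, 258 (279 reads), was the control PYR library of mouse U9, with 1.85 of Vip and 298 of Lamp5. It held 159 of Htr3a, the most of any PYR, PV or SST library, and no Ndnf read. Its VIP markers summed to 4383, against a control PYR median of 3073. Conversely, the control SST library of mouse U10 held 304 of Vip, the most outside VIP captures, beside 1 read of Adarb2. Ndnf and Lamp5 were also high where Adarb2 was not: the control PV library of mouse U2 held 945 of Ndnf beside 0.789 of Adarb2, and the UCMS PYR library of mouse U605 held 642 of Ndnf and 470 of Lamp5 beside no Adarb2 read. Lamp5 was also read in every PYR library, at 68.5 to 646 normalized counts, so its level does not single out neurogliaform interneurons here. The part of VIP or neurogliaform cells in these values was not tested. Over all groups the summed level of 5 markers of other interneurons of the caudal ganglionic eminence had medians between 203 and 463, and 9 VIP markers summed to 59.8 to 4677 outside VIP captures against 13463 to 29896 within them. The sum of 5 markers includes Lamp5, and its control median was 366 in PYR against 325 in VIP libraries. Each group had at most 1 gene of either list at 0 in all its libraries.

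Adarb1 was highest in PV neurons. Control PV libraries ranged from 2169 to 4355 normalized counts (median 3160) and UCMS PV libraries from 2274 to 5533 (median 2872). Control SST libraries ranged from 1181 to 2334 (median 1682) and UCMS SST libraries from 908 to 1911 (median 1151). All UCMS PV libraries lay above all UCMS SST libraries, a separation that 1.09% of genes showed in one direction or the other, while in controls the 2 ranges overlapped.

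Control VIP libraries held 531 to 2355 normalized counts of Adarb1 (median 1158) and UCMS VIP libraries 932 to 3557 (median 1321). Control PYR libraries held 516 to 2027 (median 978) and UCMS PYR libraries 721 to 1582 (median 889). PV and PYR values did not overlap in either arm, as for 2.02% of genes in control and 2.62% in UCMS mice. The order of mean levels was PV, SST, VIP, PYR in controls and PV, VIP, SST, PYR under UCMS.

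Within single mice the PV library was the highest almost throughout. PV exceeded PYR in 10 of 10 control and 9 of 9 UCMS mice, SST in 10 of 10 and 9 of 9, and VIP in 10 of 10 and 8 of 9; the exception was mouse U601. In UCMS mice the PYR minus PV difference was -1.73 on the log2 scale (SE 0.182, limma adjusted p = 1.20e-15; 11.3% of genes called). PV exceeded SST by 1.38 (SE 0.182, limma adjusted p = 3.41e-10; 5.24% called), a ratio of means of 2.60. VIP minus PV was -1.19 (SE 0.182, limma adjusted p = 4.52e-08). These differences passed under each alternative tried.

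Among the other types Adarb1 differed little. VIP exceeded PYR by 0.54 in UCMS mice (SE 0.176, limma adjusted p = 0.0459), in 8 of 10 mice. This call ended under 7 of 10 alternatives that kept all mice or left out low libraries, with adjusted p between 0.0573 and 0.206, and without each of 8 of the 10 mice, holding only without U603 (0.66, adjusted p = 0.0157) or U606 (0.63, adjusted p = 0.0206). Without U601, whose VIP library had the highest Adarb1 value, the difference was 0.40 (adjusted p = 0.253). VIP minus SST was 0.19 (95% interval -0.15 to 0.54, limma adjusted p = 0.679) and PYR minus SST -0.35 (-0.70 to -0.003, adjusted p = 0.321; 6.26% of genes called).

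**Figure D2:**
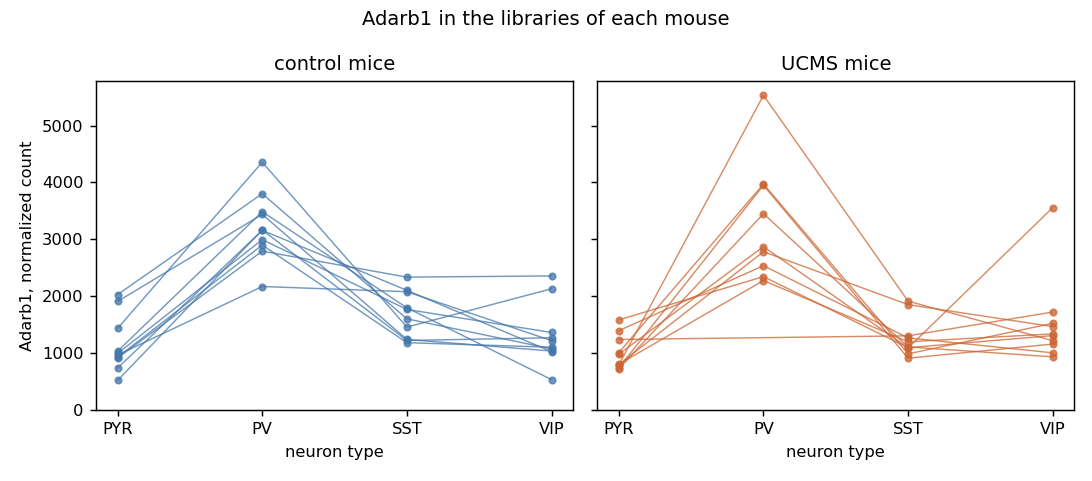
Adarb1 normalized counts (linear axis from 0) in the libraries of each mouse, joined by a line, for 10 control mice (left) and 10 UCMS mice (right, mouse U609 without a PV library). PV is the peak in every control mouse and in 8 of the 9 UCMS mice that have it, and the VIP value of 3557 belongs to mouse U601.

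The marker sums of captured and other neurons also differed between the types. The 5 PV markers summed to 7559 to 17332 in PV libraries and to 340 to 4705 elsewhere, and 8 pyramidal markers summed to 3104 to 6631 in PV libraries, 3712 to 7909 in SST, 5592 to 10770 in VIP and 14127 to 21567 in PYR libraries. Their part in the Adarb1 levels was not tested.

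No difference of Adar between types passed the test. Control ranges were 787 to 2196 normalized counts in PYR (median 1538), 800 to 1696 in PV (1257), 857 to 2023 in SST (1390) and 483 to 2008 in VIP (1564). UCMS ranges were 1097 to 1898 in PYR (1405), 1024 to 2485 in PV (1421), 669 to 1788 in SST (1511) and 923 to 3015 in VIP (1311). Every pair of types overlapped in both arms. The 6 differences between types in UCMS mice lay between -0.06 and 0.08 on the log2 scale, with limma adjusted p from 0.881 to 0.984. Their 95% intervals reached from -0.43 to 0.44 at the widest, so differences of that size remain possible. The sign of 3 of them turned under some scalings or tools.

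**Figure D3:**
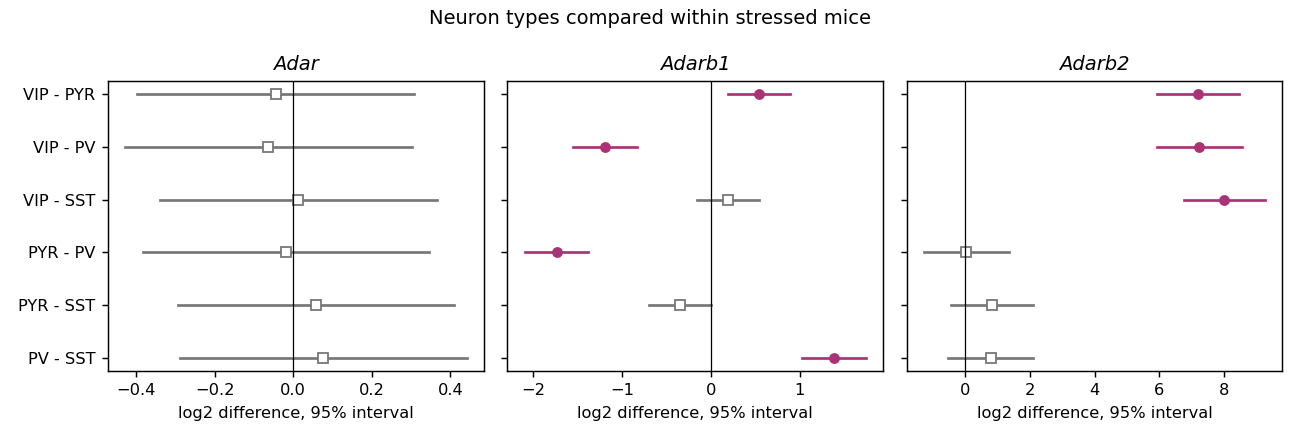
Differences between neuron types within UCMS mice on the log2(normalized count + 4) scale, with 95% intervals from limma with the mouse as a block; filled circles passed an adjusted p of 0.05, open squares did not, and each panel has its own horizontal scale. Adarb2 differs by 7.21 to 8.02 wherever VIP is involved, Adarb1 wherever PV is involved, and Adar nowhere. Adarb1 also passed in VIP against PYR (0.54, limma adjusted p = 0.0459), a call that ended under most alternatives.

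Per kilobase of exon the 3 genes can be set beside each other, with the length taken over all annotated exons of a gene. The transcripts present may be shorter, and 1365 of the 8118 Adar bases overlap exons of Chrnb2. The shares and ratios below depend on these lengths. In PYR libraries Adar made up 63.6% ± 10.2 (control, SD, n = 10) and 65.3% ± 9.20 (UCMS, n = 10) of the family's summed level, and Adarb1 nearly all of the rest. In SST libraries Adar made up 53.0% ± 5.87 and 59.4% ± 7.31. In PV libraries Adarb1 was the larger part, with 64.2% ± 7.62 and 60.5% ± 9.79 (n = 9). In VIP libraries Adarb2 made up 61.7% ± 9.64 and 59.4% ± 6.55, and 1.01% to 2.66% on average in the other types.

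The ratio of Adarb1 to Adar per kilobase ran the same way. It averaged 1.96 ± 0.555 and 1.75 ± 0.738 in PV libraries (control, UCMS), 0.879 ± 0.241 and 0.691 ± 0.227 in SST, 0.754 ± 0.468 and 0.834 ± 0.391 in VIP, and 0.573 ± 0.311 and 0.538 ± 0.239 in PYR libraries. Group means were above 1 in PV libraries of both arms and below 1 in the other types. The summed family level per kilobase averaged 772 and 768 in VIP, 446 and 478 in PV, 328 and 287 in SST, and 299 and 268 in PYR libraries. Of the VIP sum, Adarb2 made up 478 ± 104 and 455 ± 128 per kilobase. Reads from introns would count toward a gene with long introns only if they were assigned to genes, which is not given in the sources used here.

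**Figure D4:**
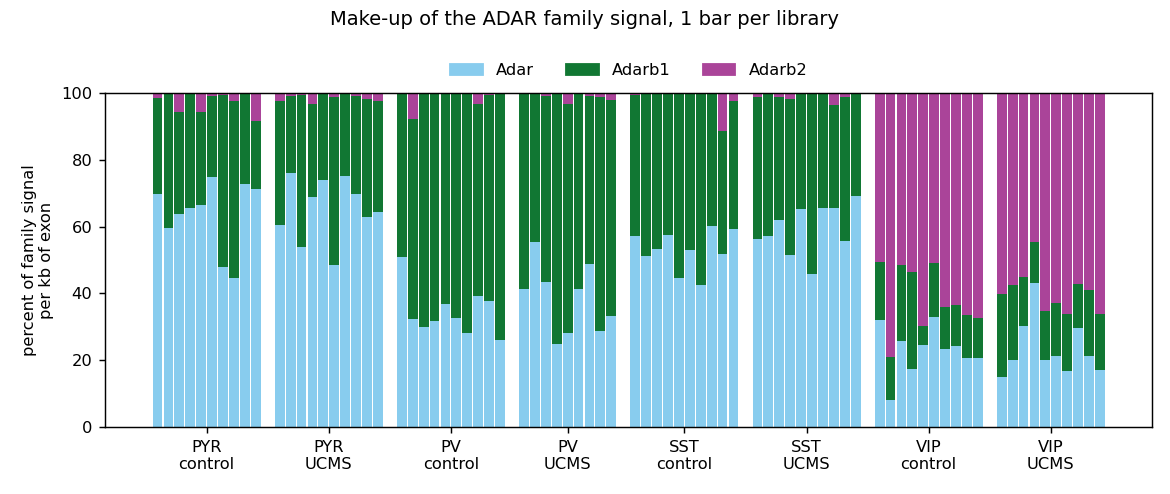
Share of Adar (light blue), Adarb1 (green) and Adarb2 (purple) in the summed level per kilobase of exon, 1 stacked bar per library, grouped by neuron type and arm; each bar sums to 100%. Adarb2 fills 44.5% to 79.1% of the VIP bars and at most 11.4% of any other.

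No member passed the test for UCMS against control in any type. For Adar the log2 differences (UCMS minus control) were -0.08 in PYR, 0.22 in PV, -0.04 in SST and 0.01 in VIP neurons, with limma adjusted p from 0.964 to 0.998. Adarb1 differed by -0.13 in PYR, -0.0023 in PV, -0.40 in SST and 0.22 in VIP neurons, with adjusted p from 0.853 to 0.998. Adarb2 differed by -0.34 in PYR, 1.297 in PV, 0.34 in SST and -0.08 in VIP neurons, with adjusted p from 0.950 to 0.982. Control and UCMS ranges overlapped for each member in each type. The share of all genes called was 0.0808% in PYR (13 of 16092) and 0% in PV, SST and VIP, where 630, 979 and 1001 genes had an unadjusted p under 0.05. On recovered reads DESeq2 called 39, 56, 54 and 108 genes in PYR, PV, SST and VIP and edgeR 0, 0, 0 and 896, and no member was among them.

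Adarb1 in SST neurons came nearest to a difference. Its mean was 1676 ± 408 normalized counts in controls and 1270 ± 343 under UCMS (SD, n = 10 each), and 8 of 10 UCMS libraries lay below the control median. The log2 difference was -0.40 (95% interval -0.78 to -0.03, limma unadjusted p = 0.0366), which did not survive adjustment (adjusted p = 0.853) and ran from -0.47 to -0.34 without single libraries. SST markers summed to medians of 27300 and 27941 in these groups and PV markers to 2421 and 2257. Microglia markers summed to medians of 338 (38.6 to 1446) in controls and 582 (154 to 955) under UCMS, with 7 of 8 genes higher, and oligodendrocyte markers to 1949 (1179 to 3990) and 2411 (705 to 7405), with 4 of 6 higher; no gene of either list was called. The part of these lists was not tested.

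Adarb2 in VIP neurons, where it is abundant, was measured tightly. Its mean was 6266 ± 1368 in controls and 5963 ± 1674 under UCMS, and 8 of 10 UCMS libraries lay below the control median. The difference of -0.08 had a 95% interval of -0.29 to 0.12, and it was 0.15 without libraries under 6000000 reads. In PV neurons Adarb2 was 76.6 ± 159 and 65.3 ± 70.6 (n = 10 and 9), and 8 of 9 UCMS libraries lay above a control median near 0. The higher control mean rests on the library of mouse U10, without which it was 31.7 ± 75.5 (n = 9) and the log2 difference 1.86 (limma adjusted p = 0.976). With all libraries the log2 difference of 1.297 had a 95% interval of -0.70 to 3.29 and turned to -0.21 with edgeR and -0.22 with DESeq2. The SST difference turned in the same way, to -0.62 and -0.66; there the control mean of 60.1 ± 132 against 38.0 ± 43.8 under UCMS (n = 10 each) rests on mouse U8, without which it was 19.6 ± 32.2 (n = 9).

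Averaged over the types with 1 value per mouse, the UCMS difference was 0.02 for Adar (95% interval -0.19 to 0.24), -0.07 for Adarb1 (-0.27 to 0.13) and 0.30 for Adarb2 (-0.45 to 1.06), with limma adjusted p of 0.981, 0.924 and 0.919; 0% of genes were called and 1187 had an unadjusted p under 0.05. The median of all genes in this comparison was 0.13, and 0.10, 0.05, 0.15 and 0.17 in PYR, PV, SST and VIP neurons. The F test for a stress difference that varied between types gave 0.433 for Adar, 1.78 for Adarb1 and 0.955 for Adarb2, each with a limma adjusted p of 1.00; 0% of genes were called and 816 had an unadjusted p under 0.05. UCMS libraries had a higher mean number of detected genes than controls in each type, at 15691 ± 1948 against 13922 ± 880 in PYR, 13636 ± 1703 against 13339 ± 2493 in PV, 15125 ± 1992 against 13639 ± 2845 in SST and 15340 ± 2865 against 13611 ± 2671 in VIP captures. Its part in these values was not tested.

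**Figure D5:**
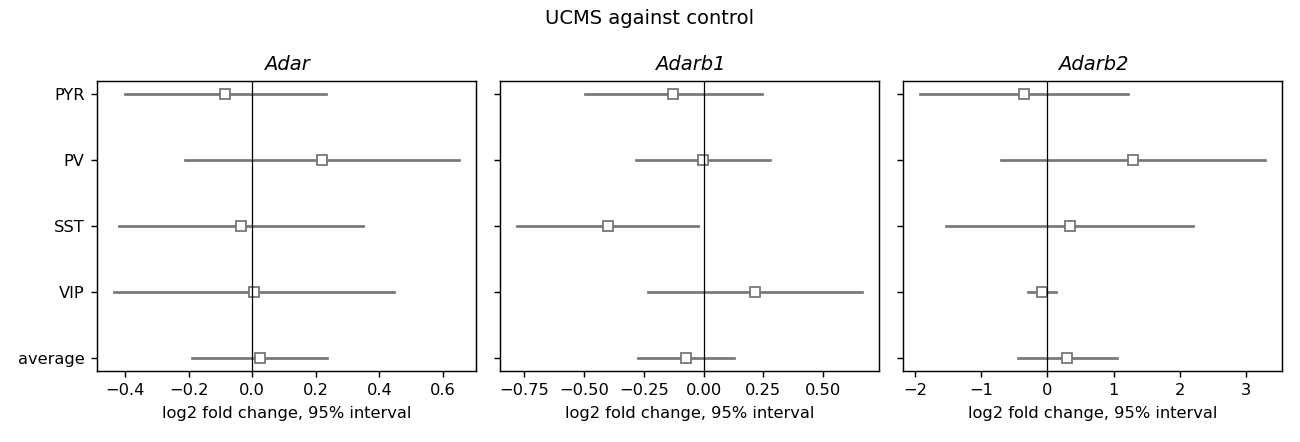
UCMS minus control for each member on the log2(normalized count + 4) scale within each neuron type and averaged over types, with 95% intervals from limma; open squares mark values that did not pass an adjusted p of 0.05, and each panel has its own scale. No value passed, and within single types the interval is narrowest for Adarb2 in VIP neurons and widest for Adarb2 in PV neurons.

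The genes whose levels over the 79 libraries ran most like each member's were taken from 13708 named genes, by Pearson correlation of the log2 values. For Adarb2 they were the neuropeptide Vip (r = 0.87), the serotonin-gated channel Htr3a (0.87), the neuropeptide Y receptor Npy2r (0.82), the transcription factor Prox1 (0.80) and the tachykinin Tac2 (0.79). After the mean of each type and arm was taken away these fell to between 0.02 and 0.29. For Adarb1 they included the secreted protein gene Lgi2 (0.80), the microtubule protein gene Map1a (0.79), the complexin Cplx1 (0.78) and the ankyrin Ank1 (0.75), with 0.24 to 0.44 left within groups. Lgi2 averaged 3180 normalized counts in UCMS PV libraries and 287 in UCMS PYR libraries.

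For Adar the closest genes reached lower values: Dtnbp1 (dysbindin, 0.50), Rab8b (a vesicle-traffic GTPase, 0.46), Arpc1a (an actin-branching subunit, 0.45), Pomt2 (a mannosyltransferase, 0.44) and Phlpp1 (a phosphatase, 0.44). The members did not run together: r was -0.05 for Adar with Adarb1, 0.02 for Adar with Adarb2 and -0.22 for Adarb1 with Adarb2, and within groups 0.06, 0.02 and 0.003. The libraries share mice, depth and the authors' scaling, so these values are descriptions.

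The transcripts that ADARs are known to recode in neurons include some that differed between the types. Of 21 substrate genes, all tested in UCMS mice, 3 were at least 2-fold higher and 1 lower in PV than in the mean of the other types (7.37% of all genes were called), 1 and 1 in VIP (4.15%), 1 and 1 in SST (2.1%), and 0 and 1 in PYR neurons (4.98%). Between pairs of types, with no fold minimum, the called share of the 21 substrates was 28.6% for VIP against PYR (5.32% of all genes), 47.6% for VIP against PV (11%), 19% for VIP against SST (4.39%), 23.8% for PYR against PV (11.3%), 38.1% for PYR against SST (6.26%) and 38.1% for PV against SST (5.24%). The calls ran in both directions in each pair, and the share of all genes is not matched for level of expression. The median substrate differed by 0.05 in PV against -0.18 for all genes, and by -0.03 in VIP against 0.07.

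Grik1, a kainate receptor subunit recoded in its pore, averaged 47.7 ± 43.6 normalized counts in PYR libraries of UCMS mice, against 2168 ± 454 in SST, 1003 ± 463 in PV and 649 ± 201 in VIP libraries. Its difference from the other types was -5.02 in PYR neurons (SE 0.296, limma adjusted p = 8.39e-28), 3.03 in SST neurons (limma adjusted p = 2.37e-14) and 1.31 in PV neurons (adjusted p = 0.00121). Gria4, an AMPA receptor subunit, was higher in PV neurons by 1.10 (SE 0.152, limma adjusted p = 1.31e-09), at 2788 ± 611 against group means of 1015 to 1545. Htr2c, the serotonin receptor with a cluster of edited sites, was higher in VIP neurons by 2.48 (SE 0.486, limma adjusted p = 0.000139), at 719 ± 241 against 135 to 282.

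Kcna1, a potassium channel edited in its pore, was higher in PV neurons by 2.12 (SE 0.448, limma adjusted p = 0.00136), at a mean of 1568 (range 600.1 to 2795, n = 9) against means of 373 to 624. The remaining substrate calls depended on the processing. Flna, an actin crosslinker, was lower in PV neurons (-1.07), but fell short of 2-fold with edgeR (-0.89), with DESeq2 (-0.90) and without mouse U604 (-0.77) or U605 (-0.99). Htr2c in SST neurons (-1.73) lost its call without any of 5 mice and Kcna1 in VIP neurons (-1.45) without any of 7; without U601 alone these differences were -1.29 (adjusted p = 0.103) and -0.84.

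Gria2, singled out after its values were seen because it is the best-known Adarb1 substrate, averaged 6872 ± 1071 normalized counts in PYR, 6160 ± 1541 in VIP, 4292 ± 703 in SST and 3631 ± 583 in PV libraries of UCMS mice. PV libraries, highest in Adarb1, had the lowest mean of Gria2, with a difference of -0.60 from the other types (SE 0.0814, limma adjusted p = 3.80e-10). This is less than 2-fold, where 11% of all genes had an adjusted p under 0.05 without a fold minimum. Given how Gria2 was chosen, its p-value is a description only. Pyramidal markers summed to medians of 17264 in PYR, 7187 in VIP, 5325 in SST and 4560 in PV libraries of UCMS mice. Their part in the Gria2 levels was not tested.

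Few genes that share the ADARs' RNA or control them passed the test between types. Of 17 genes of RNA-duplex sensing and the interferon response, 11 could be tested in UCMS mice. Eif2ak2, the kinase PKR that halts translation, was lower in PYR neurons (-2.10, limma adjusted p = 0.0463), where 8 of 10 libraries held no read; the call ended with 4 of the other processings and without any of 8 mice. Ifit3, an interferon-induced gene, was higher in SST neurons (2.43, adjusted p = 0.0166) but not called without U602 (2.13, adjusted p = 0.082), U607 (2.23) or U610 (2.24). Of 8 genes for processing RNA duplexes, Dgcr8, the microRNA processing partner of Drosha, was lower in PV neurons (-1.43, adjusted p = 0.00648), a call that ended with edgeR (-1.16) and without U603 (-1.20) or U608 (-1.04). None of 13 regulators and transport factors of ADARs and none of 7 testable other deaminases and inosine-handling genes reached a 2-fold call in any type.

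Stress moved none of these lists' genes past the test. For the substrates 21, 20, 20 and 21 genes were tested in PYR, PV, SST and VIP neurons, and their medians were 0.19, -0.01, -0.02 and 0.03. The smallest p in PYR belonged to Gria2 (0.26, limma adjusted p = 0.634) and Gria3 (0.30, adjusted p = 0.747), in PV to Blcap (-0.72) and Htr2c (1.67), both with adjusted p = 0.982, in SST to Cog3 (1.34, adjusted p = 0.841) and Gria3 (-0.36, adjusted p = 0.842), and in VIP to Tmem63b (-0.71, adjusted p = 0.932) and Gabra3 (0.49, adjusted p = 0.933). Over the average of types the leading substrate was Htr2c (0.88, SE 0.372, limma adjusted p = 0.700), ahead of Gabra3 (0.27, adjusted p = 0.764).

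The same held for the other lists over the average of types. Fxr1, an RNA-binding paralog of the fragile X protein, had the smallest adjusted p of the regulators (0.74, SE 0.248, limma adjusted p = 0.610), followed by the nuclear importer Tnpo1 (0.42, adjusted p = 0.758). Among the sensors Eif2ak2 (0.88, adjusted p = 0.725) and Ddx58, the RNA helicase RIG-I (0.74, adjusted p = 0.757), came nearest. Stau1 (0.23) and Dhx9 (0.11) led the duplex-binding genes and Endov (-0.40) and Adat2 (0.35) the other deaminases and inosine-handling genes, with adjusted p between 0.864 and 0.924. List medians for this average were 0.03 (substrates), 0.19 (regulators), 0.16 (sensing), 0.03 (processing) and 0.01 (other deaminases), against 0.13 for all genes.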

How the data were processed

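RNA of laser-captured neurons was sequenced with a stranded total-RNA low-input kit, per the labels' protocols. HISAT2, SAMtools 1.3 and DESeq2 are named in the submitters' processing notes, with the build GRCm38; the tool that counted reads and its annotation were not given in the sources used here. The deposited table holds the authors' normalized counts, a signal in which each value is a whole read divided by a library size factor; 100% of values came out as whole reads within 0.001 reads. Gene positions and exon lengths come from GENCODE M21 (38566 of 38879 genes matched). The main test was limma 3.58.1 (R 4.3.3) with a trended, robust prior on log2(normalized count + 4), for genes with a mean of at least 10 in the libraries fitted, with Benjamini-Hochberg adjustment over all genes tested and a threshold of 0.05. Stress was tested within each type, on 1 type-centred value per mouse, and as an interaction. Neuron types were tested in the 39 UCMS libraries with the mouse as a fixed block, because a number in the labels was taken to mark 1 mouse. Over 117 same-mouse pairs of libraries the median correlation of deviations from group means was 0.00773, with none over 0.1. It was -0.000605 over 2223 pairs from different mice, so libraries of a mouse hardly deviated together. The pairing by mouse therefore rests on the labels and not on these correlations. No 2 libraries were identical (highest correlation 0.848). P-values for stress within a type or averaged over types measure the spread between mice. Those for neuron type and for the interaction measure the spread of libraries within mice, since the mouse was a fixed block there. For the pathway lists a difference from the mean of the other types also had to be 2-fold. Alternatives were other pseudocounts (1, 16), no filter or a mean of 50, quantile or protein-coding scaling, edgeR 4.0.16 and DESeq2 1.42.0 on recovered reads, mouse as a random block, no block, no low libraries, and leaving out each library or mouse. DESeq2 gave some genes no adjusted p, and these were not counted. Scripts were tested on simulated data. The members and all gene lists were chosen with earlier results of these data known, and values of UCMS mice may have been among them. Named genes were the members, list genes past the threshold (up to 4 by size) or else the 2 with the smallest p, of which those for the average of types and the substrates are printed, and the 5 most correlated genes, of which 1 is not reported here; Gria2 between types was added after its values were seen.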

Additional observations from a re-analysis of the deposited data

Results flagged for a closer look

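The 24 groups (3 genes in 8 groups of libraries) were checked for a library far from the others, by the gap to its nearest neighbour over the group's range. In all, 6 were marked. The limit used marks about 1 in 20 groups by chance only where values are normally spread. The check used normalized counts without logs, and each marked library was the highest of its group. The number marked therefore cannot be set against that rate. The VIP library of UCMS mouse U601 stood apart for both Adarb1, at 3557 normalized counts against 1720 for the next highest, and Adarb2, at 10070 against 6993. That library had 9636 detected genes, the fewest of the UCMS VIP libraries, and the highest VIP marker sum of all, 29896. Adar stood apart in the UCMS PV library of mouse U602, at 2485 against 1598, and in the UCMS VIP library of mouse U604, at 3015 against 1872. Adarb2 stood apart in the control PV library of mouse U10, at 481 against 230, and in the control SST library of mouse U8, at 425 against 98.0. The cause of these values was not tested.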

How the results depend on the processing

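The member results comprised 36 values. Every difference of Adarb2 with VIP neurons and of Adarb1 with PV neurons stayed past the threshold under each alternative. Adarb1 in VIP against PYR neurons did not: it was 0.54 with a pseudocount of 1 or no filter, 0.51 after quantile normalization, 0.50 after protein-coding scaling, 0.42 with edgeR, 0.53 with DESeq2, 0.55 without low libraries and 0.40 to 0.66 without single mice. Values that changed sign were all uncalled. With a pseudocount of 16 Adarb2 in PYR against PV was -0.066. Quantile normalization turned the UCMS differences of Adarb1 in PV (0.031), Adar in SST (0.023), Adarb2 in SST (-0.51) and Adarb2 on average (-0.039), and Adar in VIP against SST (-0.032) and PYR against PV (0.015) and Adarb2 in PYR against PV (-0.34). Protein-coding scaling turned Adarb1 under UCMS in PV (0.019), Adar in VIP against SST (-0.038) and Adar in PYR against PV (0.00955). edgeR turned Adarb1 (0.059) and Adarb2 (-0.21) under UCMS in PV, Adar (0.018) and Adarb2 (-0.62) under UCMS in SST, Adar in VIP against SST (-0.018) and in PYR against PV (0.022), and Adarb2 in PYR against PV (-0.21). DESeq2 turned Adarb1 (0.027) and Adarb2 (-0.22) under UCMS in PV, Adarb2 under UCMS in SST (-0.66), Adar in VIP against PYR (0.0025) and Adarb2 in PYR against PV (-0.28). Without libraries under 6000000 reads Adarb1 under UCMS in PV was 0.048, Adar, Adarb1 and Adarb2 under UCMS in VIP were -0.13, -0.014 and 0.15, and Adar in VIP against PYR was 0.015. Leaving out single libraries moved the UCMS differences of Adar in SST over -0.11 to 0.076 and in VIP over -0.16 to 0.069, of Adarb1 in PV over -0.10 to 0.058 and of Adarb2 in PYR over -0.72 to 0.021. Leaving out single mice moved Adar over -0.011 to 0.15 (PV against SST), -0.083 to 0.032 (PYR against PV), -0.015 to 0.10 (PYR against SST), -0.21 to 0.093 (VIP against PV), -0.17 to 0.061 (VIP against PYR) and -0.094 to 0.12 (VIP against SST), and Adarb2 in PYR against PV over -0.41 to 0.72. Fits without the replicate block, that is without pairing by mouse, changed no member's call (21 of 21): Adarb2 in VIP against PYR was then 7.21 and Adarb1 in VIP against PYR 0.54. They ended 2 list calls, Htr2c in SST (-1.67) and Kcna1 in VIP neurons (-1.42).

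The number of genes called under UCMS in PYR neurons, 13, became 7 with a pseudocount of 1, 39 with DESeq2, 2 to 14 without single libraries (2 without control mouse U3 or U6 or UCMS mouse U601, 5 without control mouse U9), and 0 with no filter, a mean of 50, edgeR or the mouse as a random replicate block. In PV it was 0 to 1 without single libraries. DESeq2 called 56, 54 and 108 genes in PV, SST and VIP, and edgeR 896 in VIP, of which 836 had reads in at most 4 of the 20 VIP libraries. Between types DESeq2 called 1745 (VIP against PYR), 3333 (VIP against PV), 1573 (VIP against SST), 3262 (PYR against PV), 2008 (PYR against SST) and 2018 (PV against SST), against 938, 1937, 775, 1991, 1105 and 925. Against the mean of the other types with a 2-fold minimum it called 1733 (PYR), 2473 (PV), 1046 (SST) and 1593 (VIP), and edgeR 861 (PV) and 472 (VIP), against 878, 1300, 371 and 732. The cause of these changes was not tested. Outside VIP captures Adarb2 had 0 to 471 reads, and no difference between any pair of those types or between arms there passed the test. How large a difference would have been detected at this depth and spread was not tested.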
